A study of Arabidopsis thaliana with 24 samples.

Results

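Rosettes of the Arabidopsis thaliana line CT101 and of Col-0, the accession whose genome is the reference for the species, were compared with no ozone applied. The comparison took the 3 CT101 control libraries and the 3 Col-0 control libraries, 6 of the 24 RNA-seq libraries of the series, and every locus in their count tables. The series also holds the lines Te and C24 and, for each of the 4 lines, libraries of plants exposed to ozone at 350 ppb for 2 h. Exposed libraries entered no value below except those of an alternative fit of all 24 libraries. The labels name no transgene, mutation or treatment for CT101 or Col-0. Plants of both lines were 3 weeks old and grown at 22 °C by day and 19 °C by night with 12 h of light, and each library came from 10 to 15 pooled rosettes. The growth text of the labels counts 8 plants per genotype, which does not match that pool size, and the labels do not resolve the difference. The labels call the 3 libraries of a line biological replicates without saying whether the pools came from separate sowings, so each p-value measures the spread between these pools. The labels do not say how CT101 was derived.

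A rosette before flowering holds several systems in which natural lines of Arabidopsis are known to differ. FLC and its relatives are MADS-box proteins that hold back flowering. Glucosinolates are sulfur-containing defence compounds of the cabbage family, made from methionine (aliphatic) or tryptophan (indole) and split by myrosinases on wounding. Jasmonate is a lipid hormone made in the chloroplast and peroxisome that switches on defence against chewing insects. NLR proteins are intracellular receptors of pathogen effectors and lie in gene clusters that vary strongly between accessions.

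The 6 libraries held between 16618338 and 23691876 counts. Pearson correlations of log2 levels were 0.975 to 0.989 between CT101 libraries, 0.974 to 0.985 between Col-0 libraries and 0.906 to 0.922 between the lines. The first principal component took 73.5% of the variance and separated CT101 from Col-0. The second took 14.8%, and replicate 1 of CT101 (39.8) and replicate 1 of Col-0 (31.5) stood apart from the other 4 libraries on it (-31.8 to -1.17). Rosette leaf markers summed to between 47455 and 56918 CPM (counts scaled to the library size) in CT101 libraries and between 50243 and 52202 CPM in Col-0 libraries, while 9 flower and seed markers summed to at most 3.51 CPM in CT101 and 3.34 CPM in Col-0. Of these, 2 had enough counts to be tested, and they went in opposite directions. AG, a floral organ gene, was called lower (log2 fold change -1.42 ± 0.35, adjusted p = 0.031), a call lost in 4 of the 6 fits that left out a library. SEP1 was higher at a log2 fold change of 2.0. It was not called in the main fit and was called with DESeq2. The 8 root markers summed to between 16.7 and 18.5 CPM in CT101 and between 12.5 and 14.7 CPM in Col-0.

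Of 32678 loci in the tables, 19103 had enough counts to be tested and were compared with edgeR's quasi-likelihood test. At a Benjamini-Hochberg adjusted p under 0.05, the limit for every call below, 2822 loci (14.8%) differed between the lines. Of these, 1360 (7.12%) were higher and 1462 (7.65%) were lower in CT101, and the 3 CT101 values lay outside the range of the 3 Col-0 values at all 2822, as they did at 6172 (32.3%) of all loci tested. Changes of at least 2-fold were called at 646 loci (3.38%) higher and 690 (3.61%) lower in CT101, 6.99% of all loci tested. The count of all calls was 1783 without CT101 replicate 3 and 1748 without Col-0 replicate 3, 2455 without CT101 replicate 1 and 2028 without Col-0 replicate 1. The count at 2-fold or more was 1134 without CT101 replicate 3 and 1092 without Col-0 replicate 3. The share of loci called was close to even over the genome, between 13.7% on chromosome 3 and 16.1% on chromosome 4.

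All reads were counted on the Col-0 genome. A lower count in CT101 can hold fewer transcripts or reads that did not align because the CT101 sequence differs from Col-0, and the deposited counts cannot tell these apart. Levels below are CPM scaled by edgeR's TMM factors. Each fold change is log2 of CT101 over Col-0, with its standard error after ±.

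**Figure D1:**
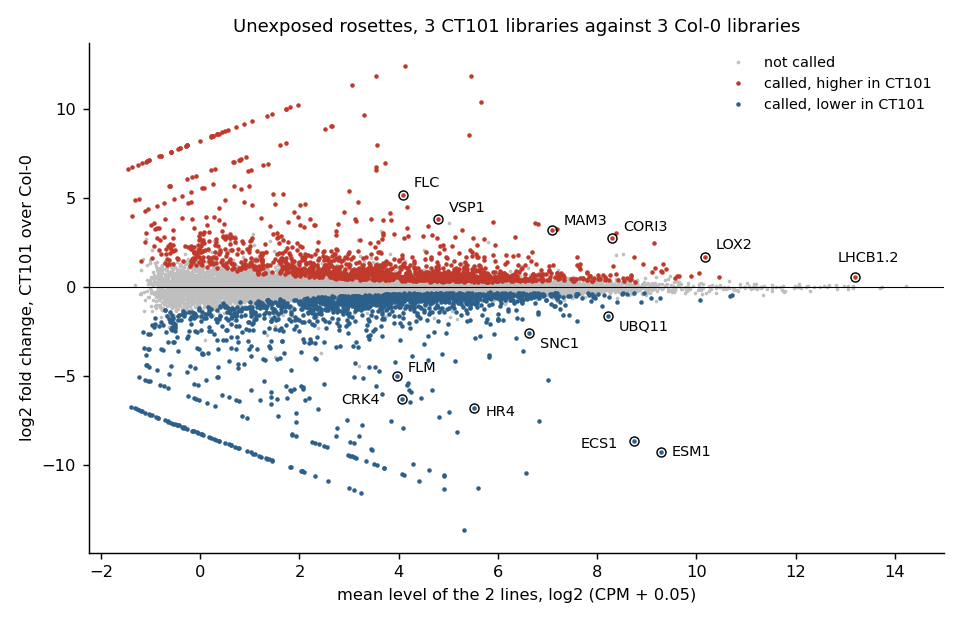
Log2 fold change of CT101 over Col-0 (y axis) against the mean level of the 2 lines (x axis, log2 of CPM plus 0.05) for the 19103 loci tested; each point is a locus, grey where not called, red where called higher and blue where called lower in CT101. The 1360 red and 1462 blue points spread over the whole range of levels, with FLC at 5.2 and ESM1 at -9.26; the straight lines of points at the outer edges are loci with 0 or few counts in 1 line, whose plotted fold change depends on the prior count.

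The largest shifts in the flowering list fell on its repressors, and they ran in opposite directions. FLC, the main repressor that vernalization silences, had 34, 30.3 and 34.4 CPM in the CT101 libraries, against 0.732, 0.845 and 1.09 CPM in the Col-0 libraries (log2 fold change 5.2 ± 0.15, adjusted p = 7.4e-07). All 3 CT101 libraries stood far above every Col-0 library. FLM, a related repressor that acts in the response to ambient temperature, showed the reverse pattern, with 0.972, 1.25 and 0.576 CPM in the CT101 libraries, against 33.8, 27.9 and 28.4 CPM in the Col-0 libraries (log2 fold change -4.99 ± 0.22, adjusted p = 3.9e-06). In file coordinates on the TAIR10 build, FLC lies at chr5:3173497-3179448 and FLM at chr1:28955637-28960096. MAF4, another relative of FLC, was higher with 3.98, 5.11 and 4.76 CPM in the CT101 libraries, against 1.22, 1.61 and 1.53 CPM in the Col-0 libraries (log2 fold change 1.66 ± 0.21, adjusted p = 0.0013). MAF2 was lower, with 15.4, 13.7 and 15.4 CPM in the CT101 libraries, against 24.6, 22.5 and 22.8 CPM in the Col-0 libraries (log2 fold change -0.65 ± 0.10, adjusted p = 0.003).

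Among the promoters of flowering, AGL24, a MADS-box activator, was lower with 9.77, 14.3 and 12.2 CPM in the CT101 libraries, against 24.1, 28 and 24.6 CPM in the Col-0 libraries (log2 fold change -1.08 ± 0.15, adjusted p = 0.0021). SOC1, which integrates flowering signals, had 17.7, 7.22 and 8.53 CPM in the CT101 libraries, against 25.3, 21.8 and 18.9 CPM in the Col-0 libraries (log2 fold change -0.97 ± 0.34, adjusted p = 0.12); every CT101 library was below every Col-0 library, and the difference did not pass the test. It did pass with DESeq2 (adjusted p = 0.012) and without CT101 replicate 1 (0.00067). FT, the mobile flowering signal, was too low to test, at 0.0926 CPM or less in every CT101 library and 0.273 CPM or less in every Col-0 library. Over the 17 of 25 flowering genes tested, 2 were called higher and 3 lower, beside 7.12% and 7.65% of all loci tested, with a median log2 fold change of -0.01 against 0.00 over all loci tested. The other lines varied at the same genes. Unexposed Te averaged 55.7 ± 1.84 CPM and C24 36.8 ± 1.99 CPM of FLC (SD, n = 3 each). FLM averaged 37.5 ± 1.86 CPM in Te and 1.05 ± 0.271 CPM in C24. Among clock genes, which set the daily rhythm, RVE8 was the one called of 17 tested, beside 14.8% of all loci tested (log2 fold change 0.62 ± 0.16, adjusted p = 0.039). That call was lost in 5 of the 6 fits that left out a library. DESeq2 called 2 clock genes higher, and CCA1, a morning regulator (0.51, adjusted p = 0.092), passed with DESeq2 (0.033).

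**Figure D2:**
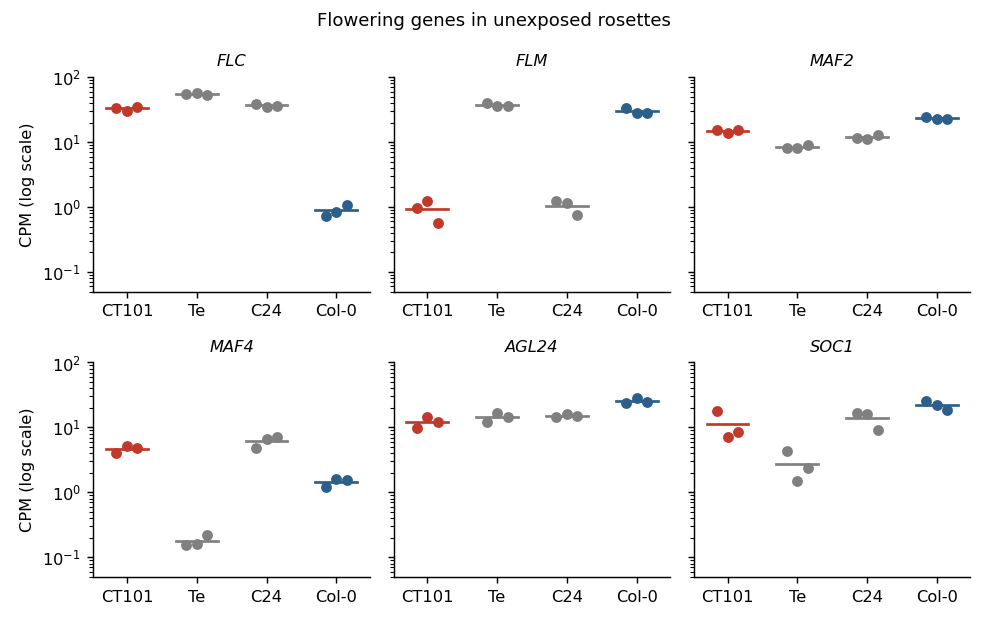
CPM on a log scale (y axis) of 6 flowering genes in the 3 unexposed libraries of CT101, Te, C24 and Col-0 (x axis); points are libraries and bars are means. FLC sits between 30.3 and 34.4 CPM in CT101 and at 1.09 CPM or less in Col-0, while FLM sits at 1.25 CPM or less in CT101 and between 27.9 and 33.8 CPM in Col-0.

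Genes that make aliphatic glucosinolates were higher in CT101 along most of the pathway. Of 23 members tested, 16 were called higher and 1 lower, where 7.12% of all loci were called higher and 7.65% lower, and the median log2 fold change of the list was 0.70 against 0.00 over all loci tested. The count of 16 was 13 to 16 when single libraries were left out. In chain elongation, which lengthens the methionine side chain, MAM3, the synthase that makes long chains, had 226, 248 and 265 CPM in the CT101 libraries, against 31.3, 27.6 and 22 CPM in the Col-0 libraries (log2 fold change 3.19 ± 0.15, adjusted p = 4.5e-06). MAM1, its neighbour that makes short chains, had 1009, 834 and 878 CPM in the CT101 libraries, against 377, 380.3 and 358 CPM in the Col-0 libraries (log2 fold change 1.29 ± 0.10, adjusted p = 0.00011). BCAT4, the aminotransferase that starts the cycle, had 689, 632 and 635 CPM in the CT101 libraries, against 205, 216 and 178 CPM in the Col-0 libraries (log2 fold change 1.7 ± 0.11, adjusted p = 2.8e-05). The 3 CT101 libraries stood above the 3 Col-0 libraries at each of these genes, and the largest ratio was at MAM3. Unexposed Te and C24 averaged 142 ± 12.5 and 190 ± 6.23 CPM of MAM3, and 488 ± 76.7 and 556 ± 88.6 CPM of BCAT4 (SD, n = 3 each). Both lines thus also lay above Col-0 at these 2 genes. At MAM1, Te averaged 346 ± 63.1 CPM, near Col-0, and C24 averaged 696 ± 125 CPM. BCAT4 overlaps a locus on the other strand, and the library kit keeps no strand, so a part of its reads may belong to that locus. MAM1 lies at chr5:7703092-7706896, MAM3 at chr5:7718121-7721839.

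The isomerase and dehydrogenase steps moved with them: IPMI-LSU1 reached 940.0, 848 and 898 CPM in the CT101 libraries, against 416, 447 and 440.3 CPM in the Col-0 libraries, with a log2 fold change of 1.04. IPMI-SSU2 (1.01) and IPMDH1 (0.70) were also called higher. The cytochromes P450 of the core structure were higher by 0.84 to 1.06 on the log2 scale. CYP79F1, which converts elongated methionine to aldoxime, had 830.2, 722 and 767 CPM in the CT101 libraries, against 383, 387 and 346 CPM in the Col-0 libraries (log2 fold change 1.06 ± 0.10, adjusted p = 0.00027), and CYP83A1, the next enzyme, had 851, 819 and 777 CPM in the CT101 libraries, against 437, 508 and 424 CPM in the Col-0 libraries (log2 fold change 0.84 ± 0.10, adjusted p = 0.0012). CYP79F1 and CYP79F2 are near-identical neighbours, and reads could be split between them. The later core enzymes were called higher at smaller fold changes, with SUR1 at 0.51, UGT74C1 at 0.40, SOT17 at 0.72 and SOT18 at 0.62. BAT5, the plastid carrier of keto acids, had a log2 fold change of 0.58. The calls of SUR1 and BAT5 were lost without Col-0 replicate 3 (adjusted p = 0.062 and 0.069), and that of UGT74C1 without that library, CT101 replicate 3 or Col-0 replicate 1.

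The S-oxygenases, which modify the side chain, split. GS-OX3 was higher, with 292, 263 and 262 CPM in the CT101 libraries, against 121, 139 and 115 CPM in the Col-0 libraries (log2 fold change 1.12 ± 0.10, adjusted p = 0.00027). GS-OX4 was the member called lower, with 4.67, 3.01 and 3.98 CPM in the CT101 libraries, against 13.4, 12.5 and 12.2 CPM in the Col-0 libraries (log2 fold change -1.7 ± 0.17, adjusted p = 0.0004). Their genes lie side by side on chromosome 1, GS-OX3 at chr1:23159823-23162649 and GS-OX4 at chr1:23169136-23172105. Of the MYB factors that activate the pathway, MYB76 was higher (log2 fold change 1.21 ± 0.17, adjusted p = 0.0023), while MYB28 (0.22, adjusted p = 0.25) and MYB29 (-0.18, adjusted p = 0.51) were not called. GSTU20 and GSTF11, glutathione transferases placed in the same pathway, were the 2 called members of 15 GST genes tested. Both were higher, beside 7.12% of all loci tested. GSTU20 had 1315, 1336 and 1376 CPM in the CT101 libraries, against 762, 748 and 787 CPM in the Col-0 libraries (log2 fold change 0.81 ± 0.09, adjusted p = 0.00052).

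Among 7 genes of glucosinolate breakdown, 1 was called higher and 1 lower, beside 7.12% and 7.65% of all loci tested. Both encode proteins that steer its products. ESM1, which favours isothiocyanates over nitriles, had 2.92, 1.9 and 1.2 CPM in the CT101 libraries, against 1409, 1104 and 1233 CPM in the Col-0 libraries (log2 fold change -9.26 ± 0.31, adjusted p = 1.7e-06). Among called loci it had the widest drop in CPM, and it held 124 counts over the 3 CT101 libraries, against 71854 over the 3 Col-0 libraries. ESP, which favours nitriles, was higher with 116, 164 and 86.1 CPM in the CT101 libraries, against 35.1, 36.5 and 35.4 CPM in the Col-0 libraries (log2 fold change 1.78 ± 0.22, adjusted p = 0.0019). The myrosinases TGG1 (-0.07, adjusted p = 0.73) and TGG2 (-0.36, adjusted p = 0.068) were not called. TGG2 passed with library totals alone (adjusted p = 0.034), without CT101 replicate 1 (0.028) and with DESeq2 (0.017). ESM1 averaged 2.59 ± 0.654 CPM in unexposed Te and 29.9 ± 5.3 CPM in C24, and ESP 76.2 ± 14.4 CPM in Te and 4164 ± 797 CPM in C24.

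Indole glucosinolate genes, listed with those of camalexin, another defence compound, were called in both directions. Of the 13 tested in this joint list, 5 were called lower and 2 higher, beside 7.65% and 7.12% of all loci tested, with a median of -0.08. The camalexin genes CYP71A12, CYP71A13 and PAD3 were not called. MYB34, an activator of the branch, had 26.7, 21.5 and 20.4 CPM in the CT101 libraries, against 41.9, 42.4 and 32.7 CPM in the Col-0 libraries (log2 fold change -0.77 ± 0.14, adjusted p = 0.009), and CYP83B1, its aldoxime-metabolizing P450, had 213, 187 and 209 CPM in the CT101 libraries, against 292, 308 and 255 CPM in the Col-0 libraries (log2 fold change -0.49 ± 0.11, adjusted p = 0.017). The methyltransferases IGMT1 (-0.91) and IGMT2 (1.05) moved apart, and as close paralogs they may share reads. The calls of CYP83B1 and IGMT2 were each lost in 4, and that of IGMT1 in 2, of the 6 fits that left out a library. Leaving out single libraries gave 1 to 4 called lower, with 1 left without CT101 replicate 2 and 2 without Col-0 replicate 1 or 2, and 0 to 2 called higher.

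Jasmonate genes were the other set in which most members were higher in CT101 than in Col-0. Of 26 tested, 16 were called higher and 1 lower, beside 7.12% and 7.65% of all loci tested, with a median log2 fold change of 1.07 against 0.00 over all loci tested. The count of 16 was 14 to 16 without any single CT101 library and fell to 9 without Col-0 replicate 3 and to 12 without Col-0 replicate 1. LOX2, the chloroplast lipoxygenase that starts synthesis in leaves, had 1138, 2478 and 1669 CPM in the CT101 libraries, against 336, 679 and 595 CPM in the Col-0 libraries (log2 fold change 1.71 ± 0.36, adjusted p = 0.026). AOS, which forms the unstable epoxide, had 603, 877 and 586 CPM in the CT101 libraries, against 245, 331 and 276 CPM in the Col-0 libraries (log2 fold change 1.28 ± 0.18, adjusted p = 0.0029). The allene oxide cyclases, which close the ring, were higher at 3 tandem loci on chromosome 3. AOC2 had 303, 286 and 297 CPM in the CT101 libraries, against 83.9, 82.3 and 105 CPM in the Col-0 libraries (log2 fold change 1.71 ± 0.12, adjusted p = 4.3e-05), and AOC1 (1.81) and AOC3 (1.43) went with it. These 3 neighbours are closely alike and may share reads; AOC4, elsewhere in the genome, was not called (0.15, adjusted p = 0.45). In the peroxisome, OPR3, the reductase, had a log2 fold change of 0.73 and ACX1, an acyl-CoA oxidase, 0.74. The call of OPR3 was lost in the fit of all 24 libraries (adjusted p = 0.23). Unexposed Te and C24 averaged 2037 ± 376 and 2169 ± 719 CPM of LOX2 (SD, n = 3 each). They averaged 126 ± 21 and 122 ± 44.8 CPM of AOC1, and 269 ± 45.1 and 301 ± 15.2 CPM of AOC2. At these 3 genes CT101 was near Te and C24, and Col-0 was the lowest of the 4 lines. At CORI3, described below, the means of Te (137 ± 29.1 CPM) and C24 (302 ± 157 CPM) lay between those of Col-0 and CT101.

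Regulators of the response were called as well. MYC2, the bHLH factor at its head, had 129, 121 and 65.7 CPM in the CT101 libraries, against 39.7, 41.6 and 38 CPM in the Col-0 libraries (log2 fold change 1.4 ± 0.24, adjusted p = 0.0089). CT101 replicate 3 was the lowest CT101 library at MYC2, and without Col-0 replicate 3 the adjusted p was 0.051. JAZ proteins hold MYC2 back and are themselves induced by the hormone. JAZ2, JAZ9, JAZ1, JAZ5 and JAZ10 were called higher, at log2 fold changes of 0.87, 1.21, 1.29, 1.18 and 1.48. JAZ2 had 30.7, 37.6 and 30.7 CPM in the CT101 libraries, against 18.1, 18.7 and 17.55 CPM in the Col-0 libraries (log2 fold change 0.87 ± 0.11, adjusted p = 0.0013). The call of JAZ2 held without any single library, and so did that of JAZ10, while those of JAZ1, JAZ5 and JAZ9 were lost in 3 to 5 of the 6 fits that left out a library. COI1, the receptor, was not called (-0.04, adjusted p = 0.9).

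The 3 largest positive fold changes of the list were at downstream markers. VSP1, a vegetative storage protein, had 21.9, 77.3 and 54.9 CPM in the CT101 libraries, against 2.87, 3.63 and 4.36 CPM in the Col-0 libraries (log2 fold change 3.82 ± 0.52, adjusted p = 0.0055). VSP2 had 60.4, 251 and 119 CPM in the CT101 libraries, against 13.8, 23.4 and 22.6 CPM in the Col-0 libraries (log2 fold change 2.84 ± 0.58, adjusted p = 0.028). Replicate 1 of CT101 was the lowest CT101 library at VSP1, VSP2, LOX2 and CORI3, and it still stood above every Col-0 library at each. Replicate 1 of Col-0 was likewise the lowest Col-0 library at these 4 genes. CORI3, a cystine lyase induced by the bacterial mimic coronatine, had 408, 675 and 561 CPM in the CT101 libraries, against 70, 88.5 and 86.4 CPM in the Col-0 libraries (log2 fold change 2.75 ± 0.20, adjusted p = 8e-05). ARGAH2, a jasmonate-inducible arginase outside the list, had 580.4, 1457 and 826 CPM in the CT101 libraries, against 115, 244 and 159.7 CPM in the Col-0 libraries (log2 fold change 2.46 ± 0.43, adjusted p = 0.014), and averaged 837 ± 201 CPM in Te and 0.730 ± 0.157 CPM in C24. PDF1.2, a defensin of the branch that needs ethylene as well, was the member called lower, with 0.0926, 0.551 and 0.471 CPM in the CT101 libraries, against 0.976, 3.46 and 3.32 CPM in the Col-0 libraries (log2 fold change -2.82 ± 0.65, adjusted p = 0.026). Its call was lost in 4 of the 6 fits that left out a library, and that of VSP2 in 3. LOX2 lost its call without CT101 replicate 3 or Col-0 replicate 3, and ARGAH2 and ACX1 without Col-0 replicate 3. PDF1.2 has near-identical copies that may share its reads. Of 17 ethylene genes tested, ETR1, a receptor, was the one called, beside 14.8% of all loci tested (log2 fold change 0.50 ± 0.10, adjusted p = 0.01). DESeq2 called 2 higher and 2 lower, among them ERF2 (adjusted p = 0.0065), EIL1 (0.039) and ACO4 (0.024).

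**Figure D3:**
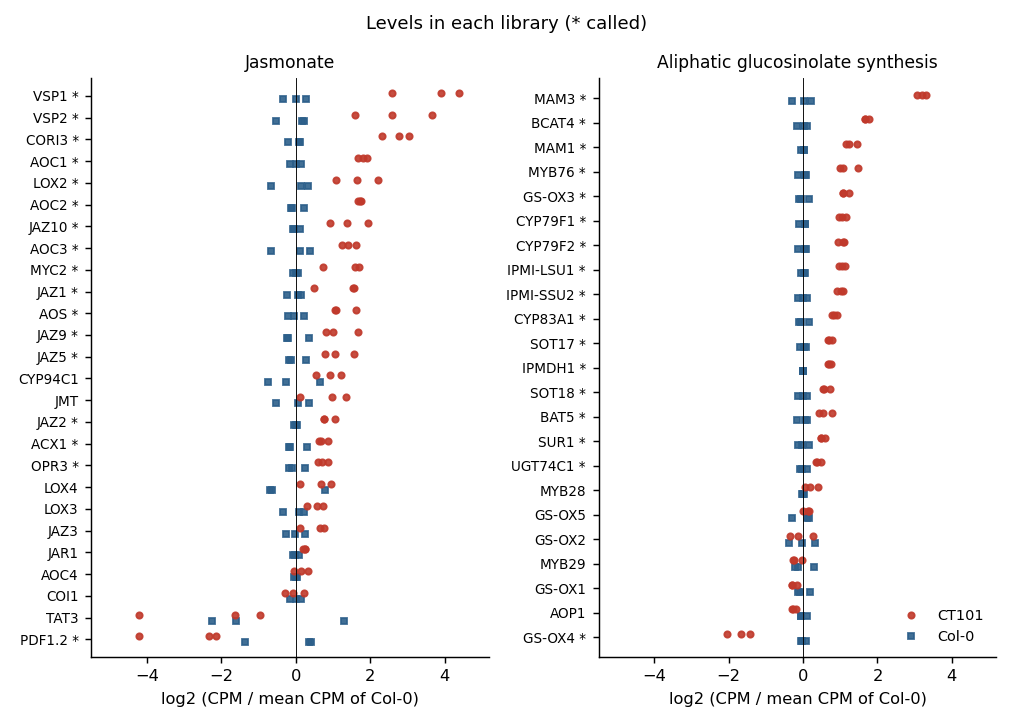
Level of each tested jasmonate gene (left) and aliphatic glucosinolate gene (right) in each library as log2 of CPM over the mean CPM of Col-0 (x axis, 0.05 CPM added to both); circles are CT101 libraries, squares are Col-0 libraries and an asterisk marks a called gene. The 16 members called higher in each list sit right of the Col-0 libraries, from MAM3 at 3.19 and VSP1 at 3.82 down to UGT74C1 at 0.40, and the CT101 circles spread more widely at VSP1, VSP2 and LOX2 than at any glucosinolate gene.

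Both sets hold promoters with the G-box CACGTG, the hexamer that MYC2 is known to bind. In the 250 bases before the annotated start, CACGTG, which reads alike on both strands, stood in 1708 of 19102 tested loci with a full window (8.94%). It stood in 10 of the 26 jasmonate genes tested (38.5%), 9 of them among the 16 called higher (56.2%). Of the 23 aliphatic glucosinolate genes tested it stood in 6 (26.1%), all among the 16 called higher (37.5%). The windows were read from the RefSeq TAIR10.1 chromosomes at the files' coordinates, so they show the Col-0 sequence and say nothing of the CT101 allele. A match is a description of letters, and binding was not measured. The promoters of 3 jasmonate genes and 2 glucosinolate genes are given 5′ to 3′ on the gene's strand, with the G-box in capitals, to show where the shared hexamer stands relative to the start at the right-hand end.
AOS, chr5:17099396-17099645, minus strand: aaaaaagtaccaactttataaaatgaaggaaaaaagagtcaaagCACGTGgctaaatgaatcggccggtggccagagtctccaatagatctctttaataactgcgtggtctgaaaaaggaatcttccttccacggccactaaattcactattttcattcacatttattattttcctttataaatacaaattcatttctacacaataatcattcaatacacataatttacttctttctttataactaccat
MYC2, chr1:11800989-11801238, minus strand: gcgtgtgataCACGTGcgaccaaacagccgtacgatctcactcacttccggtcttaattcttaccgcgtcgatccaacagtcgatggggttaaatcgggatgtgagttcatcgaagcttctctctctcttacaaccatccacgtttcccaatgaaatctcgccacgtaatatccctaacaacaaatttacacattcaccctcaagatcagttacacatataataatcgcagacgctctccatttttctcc
JAZ2, chr1:28150445-28150694, minus strand: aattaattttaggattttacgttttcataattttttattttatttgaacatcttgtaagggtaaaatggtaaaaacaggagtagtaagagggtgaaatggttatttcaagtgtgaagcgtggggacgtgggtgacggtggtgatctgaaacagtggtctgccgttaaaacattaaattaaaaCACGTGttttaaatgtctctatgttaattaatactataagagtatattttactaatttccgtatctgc
CYP83A1, chr4:7992312-7992561, minus strand: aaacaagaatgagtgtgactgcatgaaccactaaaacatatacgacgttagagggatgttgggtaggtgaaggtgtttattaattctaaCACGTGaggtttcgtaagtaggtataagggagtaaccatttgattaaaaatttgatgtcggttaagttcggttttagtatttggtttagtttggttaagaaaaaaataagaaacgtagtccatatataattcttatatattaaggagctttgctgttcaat
GS-OX3, chr1:23159573-23159822, plus strand: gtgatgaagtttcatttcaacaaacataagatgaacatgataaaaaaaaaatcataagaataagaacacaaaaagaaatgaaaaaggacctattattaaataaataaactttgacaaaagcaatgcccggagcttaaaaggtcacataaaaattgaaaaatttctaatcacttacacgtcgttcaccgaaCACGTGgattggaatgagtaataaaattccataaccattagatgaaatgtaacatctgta
Each of these 5 windows held 1 copy. The genes with the largest positive fold change in each list, VSP1 and MAM3, held none in this window, nor did LOX2, AOC1, VSP2 or BCAT4.

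Few genes of salicylic acid and systemic immunity were called. Of 30 tested, none was called higher and 1 was called lower, beside 7.12% and 7.65% of all loci tested, with a median of 0.02. At an unadjusted p under 0.05, which 26.6% of all loci passed, 0 of the 30 were higher and 2 were lower, and DESeq2 also called 0 higher and 1 lower. The lowest log2 fold change of the list, at UGT76B1 (-4.44, adjusted p = 0.12), was not called in the main fit. UGT76B1 passed in the fits of the 12 unexposed (0.039) and of all 24 libraries (0.0051). With the replicate number as a block, UGT76B1 (0.0016), ALD1 (-2.31 in the main fit, 0.0022) and GRX480 (1.32, 0.013) passed. ICS1, the enzyme that makes most salicylic acid, had 27.6, 33.5 and 39.5 CPM in the CT101 libraries, against 22.3, 48.2 and 20.9 CPM in the Col-0 libraries (log2 fold change 0.13 ± 0.34, adjusted p = 0.87). PR1, the classical marker, had 12.6, 228 and 254 CPM in the CT101 libraries, against 18, 223 and 68.7 CPM in the Col-0 libraries (log2 fold change 0.67 ± 1.25, adjusted p = 0.81). Replicate 1 was the lowest library of both lines at PR1, and the groups overlapped. The called member was ACD6, an ankyrin protein that raises salicylic acid and slows growth in some accessions, with 64.8, 81.8 and 111 CPM in the CT101 libraries, against 224, 298 and 248 CPM in the Col-0 libraries (log2 fold change -1.58 ± 0.20, adjusted p = 0.002). ACD6 averaged 75 ± 11.4 CPM in Te and 312 ± 59.6 CPM in C24.

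Immune receptors of the NLR class were called in both directions. Of 35 tested, 10 were called lower and 5 higher, beside 7.65% and 7.12% of all loci tested. These counts include HR3 and HR4, relatives of the powdery mildew resistance protein RPW8 that are not themselves NLR proteins. The median log2 fold change was -0.06. RPP2A and RPP2B, a neighbouring pair that recognizes downy mildew together, both fell. RPP2A had 3.75, 3.61 and 3.87 CPM in the CT101 libraries, against 78, 59.6 and 60.9 CPM in the Col-0 libraries (log2 fold change -4.14 ± 0.14, adjusted p = 1.1e-06), and RPP2B had 3.42, 4.26 and 4.55 CPM in the CT101 libraries, against 60, 53.4 and 49 CPM in the Col-0 libraries (log2 fold change -3.73 ± 0.14, adjusted p = 1.8e-06). SNC1, whose activation causes autoimmunity, had 27.1, 26.3 and 31.8 CPM in the CT101 libraries, against 184, 163 and 162 CPM in the Col-0 libraries (log2 fold change -2.58 ± 0.11, adjusted p = 3.8e-06). ADR1, a helper that acts downstream of other NLR proteins, had 1.02, 1.2 and 2.51 CPM in the CT101 libraries, against 13.2, 18.9 and 13.7 CPM in the Col-0 libraries (log2 fold change -3.29 ± 0.33, adjusted p = 0.00053). CT101 was low in all 3 libraries at each of these 4 genes, with no overlap. RPP1 (-1.86), RPP5 (-1.49), RPP13 (-1.1) and RPP8 (-0.75), further downy mildew receptors, were lower by smaller amounts, as was WRR4, a white rust receptor (-0.51), whose call was lost in 4 of the 6 fits that left out a library. RPP8 overlaps another locus on the same strand, and NLR genes have near copies beside them, so reads of a cluster may be shared.

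HR4, a membrane protein related to the powdery mildew resistance protein RPW8, had 0.463, 1.2 and 0.785 CPM in the CT101 libraries, against 34.7, 187 and 52.2 CPM in the Col-0 libraries (log2 fold change -6.81 ± 0.96, adjusted p = 0.0082). Col-0 replicate 2 was far above the other 2 Col-0 libraries, and the call was lost without CT101 replicate 1 (adjusted p = 0.071). Against these, CSA1, which works in pair with CHS3, was higher with 69.4, 71.5 and 77.8 CPM in the CT101 libraries, against 21.1, 22.6 and 22.5 CPM in the Col-0 libraries (log2 fold change 1.72 ± 0.09, adjusted p = 8.7e-06). VICTR, annotated as a disease resistance protein, had 32.8, 37 and 50.2 CPM in the CT101 libraries, against 15.5, 15.4 and 13.8 CPM in the Col-0 libraries (log2 fold change 1.42 ± 0.16, adjusted p = 0.00078). LOV1, which confers sensitivity to victorin, was also higher (0.83), as were RLM3 (0.42) and NRG1.1 (0.38); the call of NRG1.1 was lost in all 6 fits that left out a library and that of RLM3 in 2. CSA1 averaged 0.0707 ± 0.0822 CPM in Te and 104 ± 3.75 CPM in C24. SNC1 averaged 21.4 ± 1.81 CPM in Te and 324 ± 36.5 CPM in C24.

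The family is wider than this list. Among 144 tested loci whose RefSeq product name holds the words disease resistance, a set drawn up after the values were seen, 34 were called lower and 9 higher at 2-fold or more, beside 3.61% and 3.38% of all loci tested, and the median was -0.10. Few receptors of other classes were called. CRK4, a cysteine-rich receptor-like kinase, had 0.509, 0.251 and 0.523 CPM in the CT101 libraries, against 30.7, 41.8 and 27 CPM in the Col-0 libraries (log2 fold change -6.26 ± 0.28, adjusted p = 4.5e-06), and of 31 such kinases tested 2 were called lower and 1, CRK24, higher (log2 fold change 1.81 ± 0.28, adjusted p = 0.004), beside 7.65% and 7.12% of all loci tested. The second lower call was CRK29 (log2 fold change -0.61 ± 0.16, adjusted p = 0.036), lost in 5 of the 6 fits that left out a library and in the fit of all 24 libraries (adjusted p = 0.24). Of 20 genes of pattern-triggered immunity, PROPEP1, the precursor of a danger peptide (log2 fold change 1.45 ± 0.25, adjusted p = 0.0069), and EFR, the receptor of bacterial elongation factor (log2 fold change 0.71 ± 0.17, adjusted p = 0.027), were called higher. None was called lower, and over all loci tested the shares were 7.12% higher and 7.65% lower. The call of EFR was lost in 5 of the 6 fits that left out a library.

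**Figure D4:**
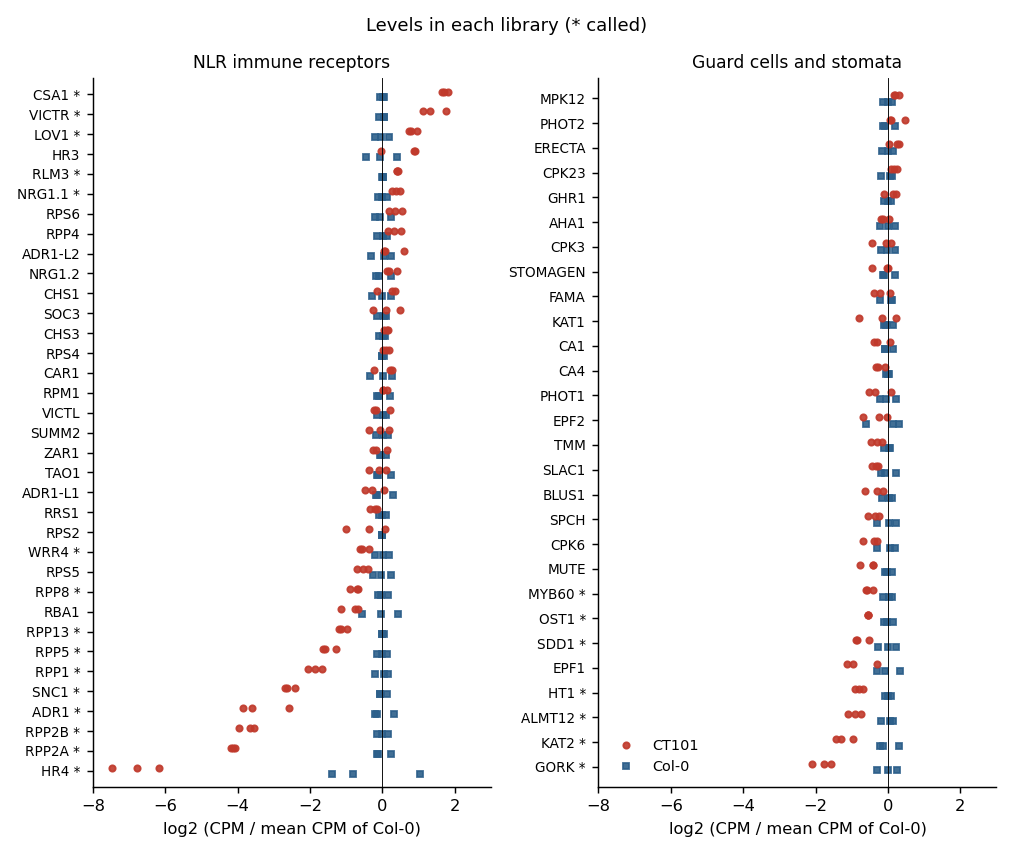
Level of each tested gene of the NLR list, with the RPW8 relatives HR3 and HR4 (left), and guard cell or stomatal gene (right) in each library as log2 of CPM over the mean CPM of Col-0 (x axis, 0.05 CPM added to both); circles are CT101 libraries, squares are Col-0 libraries and an asterisk marks a called gene. HR4 (-6.81), RPP2A (-4.14) and RPP2B (-3.73) lie farthest left and CSA1 (1.72) farthest right, while the 7 called stomatal genes all lie left, down to GORK at -1.83.

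Several runs of neighbouring genes were lower in CT101 as a block. In 9 runs, 4 or 5 tested neighbours in a row were all called lower by at least 2-fold, and no such run was called higher. With 3 or more neighbours the counts were 21 runs lower and 7 higher. Not all runs are separate regions. Those at chr3:17387976-17428511 and chr3:17445810-17452843 lie close together, and 2 others are copies of a block described below. Runs of 3 at chr1:8798483-8808156 and chr1:8827286-8837007, the latter with AT1G25175, flank the LpxC4 run described below. The cluster around SNC1, chr4:9496185-9516541, was lower at 5 neighbours. At chr1:8811905-8822533 the 4 neighbours included LpxC4, a lipid A synthesis gene, which had 1.11, 0.952 and 0.628 CPM in the CT101 libraries, against 8.36, 6.97 and 7.41 CPM in the Col-0 libraries; it has near copies close by that may share reads. The pair PLC9 and PLC8, phospholipases C, lay in another run on chromosome 3. PLC8 had 0.0926, 0 and 0 CPM in the CT101 libraries, against 36.5, 44.5 and 36 CPM in the Col-0 libraries, so its reads in CT101 were 2 in all, and the ratio of Col-0 over CT101 was 1201 with a 95% interval of 332 to 9919.9 from counting error. Runs at chr5:20569563-20584559 and chr5:20605218-20617901 hold the 2 copies of a duplicated block with SPL13A and SPL13B, which encode near-identical squamosa promoter-binding proteins. SPL13A had 4.86, 2.86 and 4.4 CPM in the CT101 libraries, against 9.52, 7.48 and 9.38 CPM in the Col-0 libraries (log2 fold change -1.12 ± 0.21, adjusted p = 0.0099), and SPL13B had 5.41, 2.25 and 2.67 CPM in the CT101 libraries, against 9.4, 6.84 and 8.67 CPM in the Col-0 libraries (log2 fold change -1.26 ± 0.32, adjusted p = 0.038). Reads from these copies may be split between them. The run at chr3:9403883-9410567 that was higher holds AOC1, AOC2 and AOC3.

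Some loci had counts in only 1 of the lines. With at least 10 counts per library on average in 1 line and none in any library of the other, 62 loci were detected in CT101 only and 85 in Col-0 only. Of the 62, 36 are annotated as protein-coding and 24 as pseudogenes, and of the 85, 42 and 35. These counts rest on the low limit: with 20 counts per library, 40 loci were detected in CT101 only. The CT101-only locus with the most counts was AT5G15360, an uncharacterized protein, with 34.2, 39 and 31.5 CPM in the CT101 libraries, against 0 counts in the Col-0 libraries. Set against 3 counts over the Col-0 group, it was at least 679.8-fold higher. AT1G27570, a phosphatidylinositol kinase family member, had 22.2, 21.4 and 25.9 CPM in the CT101 libraries, against 0 counts in the Col-0 libraries and was at least 450.0-fold higher. AT5G47260, a putative disease resistance protein, had 8.65, 5.86 and 8.53 CPM in the CT101 libraries, against 0 counts in the Col-0 libraries and was at least 149.9-fold higher.

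On the Col-0 side, the noncoding locus AT1G25175 had 0 counts in the CT101 libraries, against 91, 76.5 and 70.2 CPM in the Col-0 libraries, and was at least 1589-fold lower in CT101 against 3 counts over the CT101 group. The coding locus AT4G09310, a SPRY domain protein, had 0 counts in the CT101 libraries, against 7.57, 8.53 and 9.1 CPM in the Col-0 libraries and was at least 171-fold lower; a near neighbour in the same family, AT4G09200, had 0 counts in the CT101 libraries, against 8.05, 7.27 and 9.38 CPM in the Col-0 libraries and was at least 165-fold lower. All 3 Col-0 libraries carried these loci, and no CT101 library had a read. A further gene close to this state was ECS1, a cell wall protein, with 1.48, 1.7 and 3.4 CPM in the CT101 libraries, against 848, 951 and 779.7 CPM in the Col-0 libraries (log2 fold change -8.62 ± 0.32, adjusted p = 3.4e-06). The thionin AT1G66100, a small antimicrobial peptide gene, had 0.324, 0.0501 and 0 CPM in the CT101 libraries, against 259, 184 and 121 CPM in the Col-0 libraries (log2 fold change -10.41 ± 0.61, adjusted p = 0.0001). AT3G62530, an ARM repeat protein, had 8.61, 2.61 and 9.0 CPM in the CT101 libraries, against 258, 225 and 266 CPM in the Col-0 libraries (log2 fold change -5.21 ± 0.45, adjusted p = 0.00073).

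Genes of guard cells and stomata that were called were all lower in CT101. Of 28 tested, 7 were called lower and none higher, beside 7.65% and 7.12% of all loci tested, and the median log2 fold change was -0.30 against 0.00 over all loci. At an unadjusted p under 0.05, which 26.6% of all loci passed in either direction, 12 were lower and 0 higher, and DESeq2 called 7 lower and 0 higher. GORK, the potassium channel that lets the cells deflate, had 1.25, 1.45 and 0.994 CPM in the CT101 libraries, against 5.25, 4.44 and 3.54 CPM in the Col-0 libraries (log2 fold change -1.83 ± 0.24, adjusted p = 0.0018). KAT2, an inward potassium channel, had 3.05, 3.86 and 2.77 CPM in the CT101 libraries, against 9.27, 6.89 and 6.49 CPM in the Col-0 libraries (log2 fold change -1.22 ± 0.20, adjusted p = 0.0052). ALMT12, a malate channel of closure, had 5.6, 5.06 and 4.4 CPM in the CT101 libraries, against 8.24, 9.84 and 10.4 CPM in the Col-0 libraries (log2 fold change -0.92 ± 0.15, adjusted p = 0.0053). The groups did not overlap at these 3 channels, and their calls held without any single library. The other 4 called genes were SDD1, a protease that limits stomatal number (-0.75), HT1, a kinase of the carbon dioxide response (-0.81), OST1, the abscisic acid kinase (-0.56), and MYB60, a guard cell factor (-0.53). Each of these 4 was lost in 3 to 5 of the 6 fits that left out a library, and the count of 7 became 3 without CT101 replicate 3 and 4 without Col-0 replicate 1 or 2. SLAC1, the anion channel on which ozone tolerance is known to depend, had 5.0, 4.66 and 5.18 CPM in the CT101 libraries, against 7.32, 5.53 and 6.0 CPM in the Col-0 libraries (log2 fold change -0.34 ± 0.16, adjusted p = 0.21); it overlaps a locus on the other strand. In whole rosettes, fewer guard cells and less RNA per guard cell cannot be told apart.

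GL1 and GL2, leaf hair genes of the rosette marker list, were called lower. They were the only called members of the 8 tested, with 2 lower and 0 higher, beside 7.65% and 7.12% of all loci tested. The median of the list was -0.11, and its further leaf hair gene, TRY, was not called. GL2, a homeobox regulator of hair cells, had 4.17, 3.66 and 4.45 CPM in the CT101 libraries, against 10.6, 13.1 and 11.1 CPM in the Col-0 libraries (log2 fold change -1.5 ± 0.14, adjusted p = 0.00032), and GL1, the MYB factor that starts them, had 0.231, 0.601 and 0.419 CPM in the CT101 libraries, against 1.34, 1.22 and 1.31 CPM in the Col-0 libraries (log2 fold change -1.62 ± 0.37, adjusted p = 0.022). GL2 overlaps a locus on the other strand, and the call of GL1 was lost in 5 of the 6 fits that left out a library. Of the growth genes of the auxin response, 3 of 25 were called lower and 0 higher, beside 7.65% and 7.12% of all loci tested, with a median of -0.38. At an unadjusted p under 0.05, which 26.6% of all loci passed in either direction, 7 were lower and 0 higher, and DESeq2 called 5 lower and 0 higher. XTH4, a wall-loosening enzyme, had 65.4, 58.8 and 64.9 CPM in the CT101 libraries, against 114, 107 and 130.1 CPM in the Col-0 libraries (log2 fold change -0.89 ± 0.10, adjusted p = 0.00089). IAA29, an auxin-inducible repressor, had 0.833, 0.701 and 0.890 CPM in the CT101 libraries, against 5.31, 2.45 and 2.07 CPM in the Col-0 libraries (log2 fold change -2.0 ± 0.40, adjusted p = 0.013), a call lost without CT101 replicate 2. SAUR15, a small auxin-induced gene (log2 fold change -0.87 ± 0.19, adjusted p = 0.017), lost its call in 4 of the 6 fits that left out a library and in the fit of all 24 libraries (adjusted p = 0.064).

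The called genes of the antioxidant list, which also holds RBOHD, a source of superoxide, were all higher in CT101. Their share of the list was near that of all loci called (14.8%). Of 29 tested, 4 were called higher and 0 lower, beside 7.12% and 7.65% of all loci tested, with a median of 0.14. At an unadjusted p under 0.05, which 26.6% of all loci passed in either direction, 9 were higher and 1 lower, and DESeq2 called 5 higher and 0 lower. DHAR1, which recycles ascorbate, had 342, 338 and 349.7 CPM in the CT101 libraries, against 199, 213 and 218 CPM in the Col-0 libraries (log2 fold change 0.71 ± 0.08, adjusted p = 0.001), and GSH2, glutathione synthetase, had 90.6, 90.14 and 96.6 CPM in the CT101 libraries, against 66.6, 56.4 and 67.8 CPM in the Col-0 libraries (log2 fold change 0.54 ± 0.10, adjusted p = 0.0085). RBOHD, the oxidase that makes extracellular superoxide, had 65.9, 70.5 and 76.8 CPM in the CT101 libraries, against 53, 59.6 and 54.3 CPM in the Col-0 libraries (log2 fold change 0.35 ± 0.10, adjusted p = 0.043), and its call, like that of VTC5 (0.39), was lost in 5 of the 6 fits that left out a library. CAT2, the main leaf catalase, had 2784, 2384 and 2143 CPM in the CT101 libraries, against 1829.7, 2646 and 1853 CPM in the Col-0 libraries (log2 fold change 0.21 ± 0.17, adjusted p = 0.5). Of 32 nuclear photosynthesis genes tested, 1 was called higher and 1 lower, beside 7.12% and 7.65% of all loci tested, with a median of 0.00. LHCB1.2, a chlorophyll-binding protein whose near-identical copies may share reads, had 12773, 11092 and 10143 CPM in the CT101 libraries, against 8428, 6703 and 7465 CPM in the Col-0 libraries (log2 fold change 0.59 ± 0.13, adjusted p = 0.02). SBPASE, of the Calvin cycle, had 1647, 1254 and 1375 CPM in the CT101 libraries, against 2128, 1811 and 1941 CPM in the Col-0 libraries (log2 fold change -0.46 ± 0.13, adjusted p = 0.046). The call of LHCB1.2 was lost in 3 and that of SBPASE in 5 of the 6 fits that left out a library.

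Among metal genes, 3 of 18 were called higher and 1 lower, beside 7.12% and 7.65% of all loci tested. COPT2, a copper transporter, had 23, 16 and 20.7 CPM in the CT101 libraries, against 9.03, 7.52 and 6.54 CPM in the Col-0 libraries (log2 fold change 1.37 ± 0.17, adjusted p = 0.0014), and FRO4, a copper reductase, had 8.52, 4.11 and 4.97 CPM in the CT101 libraries, against 1.28, 1.22 and 1.14 CPM in the Col-0 libraries (log2 fold change 2.27 ± 0.31, adjusted p = 0.002). FRO4 has a near copy beside it, FRO5, which was too low to test, and reads may be split between them. FRO3, a mitochondrial reductase, was lower with 7.91, 8.42 and 8.43 CPM in the CT101 libraries, against 21.7, 19.5 and 15.6 CPM in the Col-0 libraries (log2 fold change -1.2 ± 0.14, adjusted p = 0.00088). The pigment regulators PAP1 (log2 fold change 1.38 ± 0.26, adjusted p = 0.011) and PAP2 (log2 fold change 2.05 ± 0.34, adjusted p = 0.0053) were called higher and MYB111 (-1.17) and UGT78D1 (-0.54) lower. These were 2 higher and 2 lower of 25 flavonoid genes tested, beside 7.12% and 7.65% of all loci tested. The calls of MYB111 and UGT78D1 were lost in 5 and 4 of the 6 fits that left out a library and that of PAP1 in 1. Of 25 cold and abscisic acid genes, 2 were called higher and 1 lower, beside 7.12% and 7.65% of all loci tested. The median of the list was 0.42. The higher calls were KIN1 (log2 fold change 1.04 ± 0.27, adjusted p = 0.04) and COR15B (log2 fold change 1.0 ± 0.28, adjusted p = 0.048), lost in 5 and 4 of the 6 fits that left out a library. Both were lost without CT101 replicate 1, CT101 replicate 3 or Col-0 replicate 3. KIN1 was also lost in the fits of the 12 unexposed (adjusted p = 0.37) and of all 24 libraries (0.33). DESeq2 called 5 higher and 1 lower. The lower call was GOLS3, a galactinol synthase, which had 0.833, 1.05 and 0.837 CPM in the CT101 libraries, against 5.55, 4.82 and 3.65 CPM in the Col-0 libraries (log2 fold change -2.36 ± 0.24, adjusted p = 0.00048). BIP3, an endoplasmic reticulum chaperone, had 0.417, 0.852 and 0.471 CPM in the CT101 libraries, against 2.44, 20.5 and 4.69 CPM in the Col-0 libraries (log2 fold change -4.0 ± 0.98, adjusted p = 0.047), with Col-0 replicate 2 far above the other 2 Col-0 libraries and the call lost in 4 of the 6 fits that left out a library. NRPD1, the large subunit of RNA polymerase IV, was the called member of 9 silencing genes, beside 14.8% of all loci tested (log2 fold change -0.63 ± 0.12, adjusted p = 0.0096). DESeq2 called 2 of the 9 lower. Of 11 senescence genes edgeR called 0, beside 14.8% of all loci tested. At an unadjusted p under 0.05, which 26.6% of all loci passed, 1 was lower, and DESeq2 called 0.

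**Figure D5:**
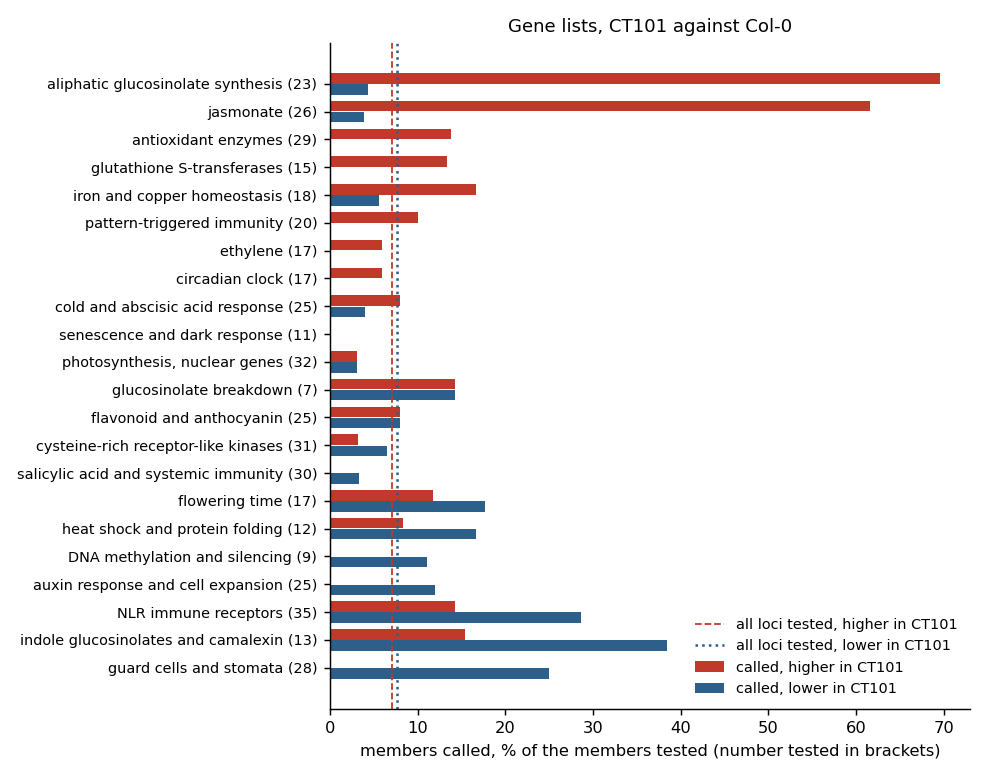
Share of the tested members of each gene list (y axis, number tested in brackets) called higher (red) or lower (blue) in CT101, in percent (x axis); the dashed and dotted lines are the shares over all loci tested, 7.12% higher and 7.65% lower. Aliphatic glucosinolate and jasmonate genes, with 16 higher of 23 and 16 higher of 26, reach far past the dashed line, and guard cell genes, with 7 lower of 28, show no red bar.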

How the data were processed

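The deposited tables give whole-number read counts per locus, which per the submitters' processing notes came from FastQC, Bowtie2, SAMtools and HTSeq on TAIR10; versions, strand setting and overlap rule are not given in the sources used here. Libraries were made from 100 ng of total RNA with a kit that keeps no strand. The raw counts were tested with edgeR 4.0.16 in R 4.3.3 (filterByExpr on the 6 libraries with a minimum count of 10 and total of 15, TMM factors from the 12 unexposed libraries, robust quasi-likelihood fit with 1 mean per line, 2-sided, Benjamini-Hochberg over 19103 loci). The depth of 16618338 to 23691876 counts sets counting error only. Standard errors are the absolute log2 fold change over the square root of F. Scripts were tested on simulated data. Symbols came from RefSeq, where 31912 of 32678 loci matched; 279 organelle loci held no count.

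Named loci were the 15 largest called changes per direction at mean levels of log2 CPM 1 or more, the 8 most abundant loci detected in 1 line only, the 10 largest CPM differences, and per list the 3 called members with the smallest adjusted p and up to 2 against the majority, plus FLC, PR1, ICS1, RBOHD, SLAC1 and CAT2. Further members of the 26 lists were named after their values were seen, and the text gives part of the rule's 107 loci. The members and lists were chosen with earlier results of these data known. Terpene synthase genes, 1 of 13 tested and not called, are described no further. Of 12 heat shock and protein folding genes tested, 1 was called higher and 2 lower, beside 7.12% and 7.65% of all loci tested. BIP3, called lower, is the one described. Alternatives were other scalings, no low-count filter, DESeq2 1.42.0, fits of 12 and 24 libraries, a replicate block and each library left out.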

Additional observations from a re-analysis of the deposited data

How the results depend on the processing

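With other scalings (RLE factors, library totals alone, TMM factors from the 6 libraries), no filter on low counts, DESeq2, or fits of the 12 unexposed or all 24 libraries, the number of loci called lay between 2740 and 3618, and the share called higher between 46.4% and 48.5%. Among these scalings the median log2 fold change lay farthest from 0 with library totals alone (-0.0122). The main fit took no account of the replicate numbers 1 to 3. Deviations of same-numbered libraries from their line means correlated at 0.570, 0.425 and 0.017. Libraries numbered 1 and those numbered 2 thus deviated in part alike in both lines. Whether a shared sowing or batch lay behind this was not tested. With the replicate number as a block, 4339 loci were called, 2126 higher and 2213 lower in CT101. JAZ1 was the only one of the list members named here as called whose adjusted p rose past the limit (0.068). SOC1 (0.015), CCA1 (0.0021), TGG2 (0.029), UGT76B1 (0.0016), ALD1 (0.0022) and GRX480 (0.013), named as not called, passed it. Leaving out each library in turn gave 1748 to 2455 loci called, 783 to 1138 higher and 924 to 1317 lower, and 1092 to 1258 at 2-fold or more; these fits hold fewer libraries. Loci detected in CT101 only numbered 57 to 81 and in Col-0 only 83 to 112 with 1 library left out; at a mean of 20 counts per library, 40 loci were detected in CT101 only and 59 in Col-0 only. Over 107 named loci and 14 alternatives, 1390 of 1498 values kept their direction and side of the limit, 107 lost the call, 1 gained it (ICS1 without Col-0 replicate 2, adjusted p = 0.049) and 0 reversed. Depth limits statements on loci near 0 counts.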

Other observations

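The unexposed libraries of Te and C24 give the levels of the same loci in the other lines of the series, as a description with no test. Of the 1336 loci called at 2-fold or more between CT101 and Col-0, the CT101 mean lay within 2-fold of both the Te and the C24 mean at 793, of Te alone at 353, of C24 alone at 153 and of neither at 37, with 0.5 CPM added to each mean. FLM was on the C24 side, with 0.933 ± 0.340 CPM in CT101 beside 1.05 ± 0.271 CPM in C24 (SD, n = 3). SNC1, ACD6 and CRK4 were on the Te side: CRK4 averaged 0.428 ± 0.154 CPM in CT101, 0.388 ± 0.295 CPM in Te and 164 ± 31.1 CPM in C24. CSA1 was on the C24 side, with 72.9 ± 4.35 CPM in CT101.

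AT3G61010, a ferritin or ribonucleotide reductase-like family protein, was singled out after its values were seen as the 1 called locus at which the CT101 mean was at least 8-fold below the means of Te, C24 and Col-0 alike; at 0 loci was it at least 8-fold above all 3. It had 0.0463, 0 and 0 CPM in the CT101 libraries, against 44.9, 38 and 44.2 CPM in the Col-0 libraries, and averaged 43.3 ± 2.24 CPM in Te and 52.8 ± 2.57 CPM in C24. The CT101 libraries held 1 count in all, and the ratio of Col-0 over CT101 was 2540.4 with a 95% interval of 456 to 100382 from counting error. Of the 62 loci detected in CT101 and not in Col-0, 34 had reads in both Te and C24, 23 were at 0 in C24, 5 at 0 in Te and 0 at 0 in both. Of the 85 detected in Col-0 and not in CT101, 37 were at 0 in both Te and C24. UBQ11, a polyubiquitin gene whose repeats are shared with other ubiquitin genes, had 145, 149 and 142 CPM in the CT101 libraries, against 412, 522 and 420.3 CPM in the Col-0 libraries (log2 fold change -1.64 ± 0.11, adjusted p = 5.3e-05), beside 149 ± 10.1 CPM in Te and 424 ± 18.7 CPM in C24.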
